A study of Mus musculus with 30 samples.

Results

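Microglia without Lrrk2 answered lipopolysaccharide (LPS) with a strong inflammatory transcript programme, and with lower transcript levels of a large family of zinc finger genes. Lrrk2 encodes a large protein with a kinase and a GTPase domain that is linked to Parkinson's disease. The comparison set 4 libraries labelled as LPS-treated Lrrk2-/- (KO) microglia against 6 labelled as KO controls, which is 10 of the 30 libraries of the study, chosen by their genotype and treatment labels alone. Microglia are the macrophages that live in the brain, and these primary cells came from C57BL/6 mice at post natal day 21, per the labels. All 10 libraries carry the Lrrk2-/- label, so the deletion is shared by both groups. The wild-type (WT) LPS libraries (n = 6) and WT controls (n = 5) were used only to ask whether the response differed with genotype. The sources used here do not give the dose of LPS, the length of treatment, the sex of the mice or the vehicle of the controls. The labels also leave unsaid whether replicates are different cultures or animals. The p-values therefore reflect only how far libraries spread within their groups, which could be technical. That spread was estimated over all 30 libraries of the study. KO LPS replicates 1 and 2 differed least of all pairs within a group. Their chi-square per degree of freedom over genes was 7.23, against 30.8 to 209 for the other pairs. They may therefore not count as separate replicates, and the spread of the LPS group may be understated, which was not tested.

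LPS is the major outer membrane lipid of Gram-negative bacteria. CD14 hands it to a complex of MD-2 (gene Ly96) and Toll-like receptor 4, which signals through MyD88 and Tirap at the cell surface and through TRIF (gene Ticam1) and TRAM (gene Ticam2) from endosomes. The first branch activates the kinases that release NF-kB and the MAP kinases that act on AP-1 factors, and the second leads through IRF3 to interferon beta. Within hours the same transcription factors also induce their own inhibitors, phosphatases and mRNA-degrading proteins, which end the response.

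Gene totals were 16518120 to 25174442 counts in KO LPS libraries (median 21291520) and 8936310 to 25792873 counts in KO controls (median 19581090). Lrrk2 itself (chromosome 15, 91673175 to 91816120 on mm10) had 3.56, 2.22, 4.68 and 3.52 CPM (counts scaled to library size) in KO LPS libraries, against a lowest value of 1.96, a median of 2.59 and a highest of 4.35 CPM in KO controls. These reads are summed over the whole gene, so they do not check the deleted stretch itself. Every KO library lay below every WT library of the same treatment, where the ranges were 11.4 to 15.9 CPM with LPS and 10.3 to 16.7 CPM in controls. Microglia and macrophage markers summed to 6464 to 7202 CPM with LPS and 5656 to 8600 CPM in controls, and 0 of 12 tested markers changed in edgeR, DESeq2 or limma-voom (1 had an unadjusted p under 0.05 in edgeR), beside 13.7% of all genes. Markers of other brain cells differed between libraries of the same group. The mean log2 CPM of astrocyte markers was 1.17, 1.08, 3.52 and 3.76 in KO LPS replicates 1 to 4, against 4.07, 3.83, 3.85, 3.16, 1.48 and 1.91 in KO control replicates 1 to 6. Summed levels were 36.4 to 195 CPM with LPS against 44.3 to 245 CPM in controls for astrocyte markers, 110 to 431 against 106 to 846 CPM for oligodendrocyte lineage markers, and 8.46 to 52 against 16.6 to 119 CPM for fibroblast markers. Fibroblast markers also tended to be lower with LPS, with a median of -1.76 on the log2 scale over 10 tested. Of these Dcn, the decorin gene, fell in edgeR (-2.58, adjusted p = 0.0293) and 4 had an unadjusted p under 0.05. For Dcn the groups overlapped, with control replicate 4 (0.199 CPM) below all LPS values (0.38 to 0.858 CPM). Its call ended without any of 5 libraries, and limma-voom called 0 of the fibroblast markers. Astrocyte levels thus split both groups, KO LPS replicates 1 and 2 and controls 5 and 6 being low and the other libraries high. Control replicate 6 also stood apart in interferon-stimulated genes. Mitochondrial ribosomal RNA took 0.536% to 0.866% of counts with LPS and 0.659% to 4.51% in controls, highest in control replicates 1 (4.51%) and 2 (1.78%). Results that rest on these libraries are given with and without them, or within each marker set, which sets LPS replicates 1 and 2 against controls 5 and 6, and LPS replicates 3 and 4 against controls 1 to 4. The defining markers Cldn5 of endothelium, S100a9 and Ly6g of neutrophils and Cd3e of T cells were at 0 in all 10 libraries. Other members of these lists were detected at low levels, such as Flt1 of endothelium with 4.66 to 9.84 CPM with LPS against 3.88 to 17.8 CPM in controls, and S100a8 of neutrophils with at most 1.23 against 0.904 CPM. In such bulk samples, fewer cells of a type and less RNA per cell cannot be told apart.

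Of 14346 genes tested, 1967 (13.7%) passed an adjusted p of 0.05 in edgeR's quasi-likelihood test with Benjamini-Hochberg adjustment, and these are the genes said here to have risen or fallen. The 912 that rose made up 6.36% of genes tested and the 1055 that fell made up 7.35%. All 4 LPS libraries lay above all 6 controls for 695 genes (4.84%) and below all 6 for 765 genes (5.33%). These shares are the background for every count of list members given below. More than 8-fold changes were found for 63 genes that rose and 10 that fell, and more than 2-fold changes for 359 and 287. The median log2 fold change of all genes was -0.04 with these factors and -0.21 when only library size scaled the counts, and then 517 genes rose while 2318 fell. Fold changes are on the log2 scale with their standard error (SE), LPS over control, unless a value is named as CPM.

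**Figure D1:**
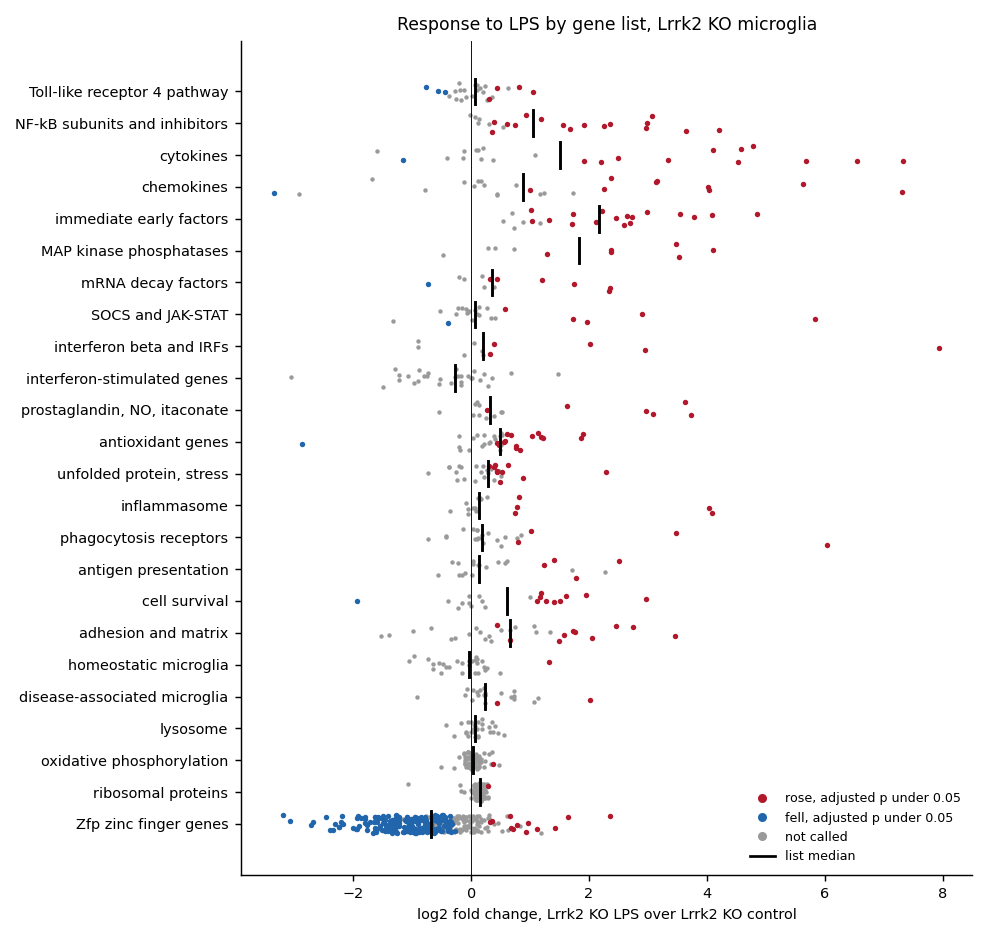
Log2 fold changes (KO LPS over KO control) of the tested members of 24 gene lists, one row per list, with each point a gene. Immediate early, NF-kB, cytokine and phosphatase genes lie mostly to the right of 0, with medians of 2.16, 1.05, 1.50 and 1.83, and Zfp genes mostly to the left, with a median of -0.68.

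At the receptor, the co-receptor transcript rose while that of the signalling receptor did not pass the test, and its adaptors moved both ways. Cd14 had 1069, 1162, 861 and 840 CPM in KO LPS libraries, against a lowest value of 334, a median of 492 and a highest of 594 CPM in KO controls, a rise of 1.05 ± 0.19 (adjusted p = 0.000164). Tlr4 had 180, 179, 183 and 185 CPM with LPS and 183, 212 and 273 CPM as the lowest, median and highest control, a difference of -0.28 ± 0.11 that did not pass (adjusted p = 0.0994). The 4 LPS values of Tlr4 were almost level and lay near the lowest control. Of 25 tested members of the Toll-like receptor 4 pathway, 4 rose and 3 fell, with a median of 0.07. Ticam1, the TRIF adaptor gene, rose by 0.81 ± 0.17 and Chuk, the IkB kinase alpha gene, by 0.30 ± 0.08. Irak4, the kinase that joins the MyD88 complex, fell by 0.44 ± 0.08, with 16.1, 16.3, 16.8 and 14.2 CPM with LPS against 18.6 to 24.3 CPM in controls. Tab1, which activates the kinase TAK1, fell by 0.57 ± 0.12. The calls of Ikbkg (0.44 ± 0.14) and Tirap (-0.77 ± 0.21) each ended without single libraries, Tirap without KO LPS replicate 4 and Ikbkg without any of 6 libraries, KO LPS replicates 1 and 2 among them. With library size as the only scaling 2 members rose, Cd14 and Ticam1, and 5 fell, Tlr4, Irak1, Irak4, Tab1 and Tirap. Myd88 (-0.09 ± 0.21) and Ly96 (0.01 ± 0.13) did not pass. Among the 10 tested members of the other Toll-like receptor list, Tlr2, the receptor for bacterial lipoproteins, alone rose, with 574, 615, 565 and 529 CPM against 107 to 204 CPM in controls (1.83 ± 0.16, adjusted p = 2.27e-09).

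NF-kB genes and their inhibitors rose together. Of 22 tested members 16 rose and 0 fell, with a median of 1.05. All 4 LPS libraries lay above all 6 controls for 16 members, beside 4.84% of all genes. Tnip1 and Rela passed with overlap, while Birc2 and Bcl3 were separated without passing. Tnfaip3, the gene of the ubiquitin-editing inhibitor A20 (chromosome 10, 19000910 to 19015657), had 1536, 1556, 1673 and 1574 CPM with LPS against 60.8 to 121 CPM in controls, an 18.5-fold rise (4.21 ± 0.20, adjusted p = 2.53e-14). Nfkbia, the gene of IkB alpha, which holds NF-kB in the cytoplasm (chromosome 12, 55489410 to 55492647), had 893, 913, 880 and 873 CPM against 68.4, 115 and 148 CPM as the lowest, median and highest control (3.06 ± 0.19). The nuclear IkB genes rose as well, Nfkbiz by 3.64 ± 0.36 and Nfkbid by 2.96 ± 0.16. Nfkbid had 70.2, 82.7, 91.4 and 75.1 CPM with LPS against 7.24, 11.1 and 12.1 CPM as the lowest, median and highest control. For all of these the groups were far apart and the LPS libraries close to each other, replicates 1 and 2 included. Among the subunits, Rel rose by 2.36 ± 0.31 (66.7, 59.4, 113 and 71.5 CPM against 8.4 to 22.3 CPM in controls) and Relb by 0.93 ± 0.10, while Rela (0.38 ± 0.11) and Nfkb1 (0.36 ± 0.12) passed by little and lost their calls without single libraries. For Nfkb1 any of 9 of the 10 libraries was enough, and for Rela KO LPS replicate 2 or 3. Traf1, a signalling adaptor of tumour necrosis factor receptors, rose by 2.99 ± 0.42. Without KO LPS replicates 1 and 2 together 13 of the members rose.

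**Figure D2:**
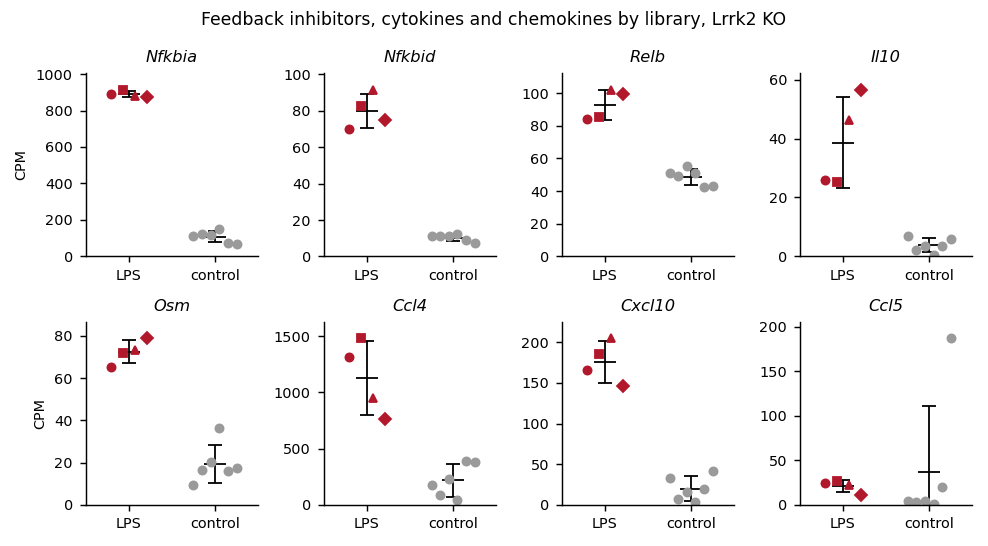
CPM of 8 induced genes by library, KO LPS left of KO control, with the mean and SD as bars. For Nfkbia, Nfkbid, Relb, Il10, Osm, Ccl4 and Cxcl10 every LPS library lies above every control, while for Ccl5 control replicate 6 lies at 187 CPM, above the LPS range of 10.9 to 27.1 CPM.

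The sequences just upstream of the RefSeq starts are printed for a few genes that rose. They show where the letters of a kB site stand. These starts can differ from the gene coordinates given in the text, and the Tnfaip3 window lies inside the span printed for that gene. Nfkbia and Tnfaip3 belong to the NF-kB list, and Cxcl1, Cxcl2, Irf1 and Il6 to other lists. The windows were taken only from promoters that hold a match, so they do not show how common it is. Each is the 110 bases before the start of the RefSeq gene (GRCm38.p6), 5′ to 3′ on the strand of the gene, with a match to the kB consensus in capitals. They lie at chr12:55492648-55492757 (minus strand), chr10:19015411-19015520 (minus), chr5:90891135-90891244 (plus), chr5:90903789-90903898 (plus), chr11:53769904-53770013 (plus) and chr5:30013004-30013113 (plus).
Nfkbia: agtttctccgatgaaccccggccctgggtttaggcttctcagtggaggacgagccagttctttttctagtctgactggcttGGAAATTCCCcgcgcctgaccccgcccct
Tnfaip3: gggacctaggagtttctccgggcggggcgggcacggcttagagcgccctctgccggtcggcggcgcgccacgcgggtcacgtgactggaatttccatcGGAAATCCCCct
Cxcl1: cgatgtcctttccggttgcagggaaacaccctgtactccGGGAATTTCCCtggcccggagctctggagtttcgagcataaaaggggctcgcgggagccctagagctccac
Cxcl2: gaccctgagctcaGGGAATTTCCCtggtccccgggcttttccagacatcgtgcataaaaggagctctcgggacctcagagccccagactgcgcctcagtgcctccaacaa
Irf1: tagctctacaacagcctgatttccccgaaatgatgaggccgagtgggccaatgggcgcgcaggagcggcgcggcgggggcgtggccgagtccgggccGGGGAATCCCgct
Il6: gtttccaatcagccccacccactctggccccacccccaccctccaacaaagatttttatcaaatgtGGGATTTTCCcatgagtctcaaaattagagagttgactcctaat

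The run GGGAATTTCCC was the same in Cxcl1 and Cxcl2, neighbouring genes that encode related chemokines. In a search of 250 bases before each start on both strands, 9 of 13 NF-kB members that rose and had a RefSeq promoter held a kB match (of 16 that rose). By promoter, where a gene can have more than 1, the match stood in 61.1% of 18 promoters of these members, in 7.25% of all 32851 promoters and in 6.85% of the promoters of genes that fell. Only 704 of the 911 risen gene symbols had a promoter, under the 80% needed, so no share is given for them. The NF-kB list was chosen with earlier results of these data known and holds inhibitors that NF-kB itself induces. Its share therefore describes the members and tests nothing. A match describes letters in the window, not a bound site.

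Secreted cytokines rose in number and in size. Of 22 tested, 11 rose and 1 fell, with a median of 1.50. Tnf, the gene of tumour necrosis factor, had 2071, 2199, 1910 and 1777 CPM with LPS against 76.4, 111 and 172 CPM as the lowest, median and highest control (4.11 ± 0.22). Il1b, the interleukin 1 beta gene, had 718, 775, 926 and 841 CPM against 21.7, 30.1 and 64.3 CPM, and its neighbour Il1a had 157, 175, 124 and 107 CPM against 0.19, 0.754 and 1.6 CPM. Il6 had 17.4, 16.3, 32.6 and 15.8 CPM against 0.0994, 0.642 and 1.83 CPM (4.78 ± 0.76), with replicate 3 the highest of the LPS libraries. Tnfsf9, the gene of the costimulatory ligand 4-1BBL (chromosome 17, 57105325 to 57107757), had 249, 269, 195 and 140 CPM with LPS against 3.06, 3.99 and 6.26 CPM as the lowest, median and highest control, a 51.4-fold rise (5.68 ± 0.36, adjusted p = 6.17e-12). Interleukin 10, which restrains macrophage activation, had 25.9, 25.4, 46.2 and 56.5 CPM with LPS against 0.497, 3.5 and 6.96 CPM (Il10, 3.34 ± 0.59). Oncostatin M, an interleukin 6 family member, had 65.4, 72.1, 73.5 and 78.9 CPM with LPS against 9.3, 16.9 and 36.4 CPM (Osm, 1.92 ± 0.33). None of these overlapped between the groups. The interleukin 1 receptor antagonist gene Il1rn rose by 2.21 ± 0.43, and was higher in LPS replicates 1 and 2 (142 and 147 CPM) than in replicates 3 and 4 (95.1 and 83.9 CPM), with controls at 13 to 37.6 CPM. Csf3, the granulocyte growth factor gene, had 5.25, 5.32, 2.78 and 4.07 CPM with LPS against 0 to 0.103 CPM in controls. The leukaemia inhibitory factor gene Lif rose by 2.49 ± 0.56, to 1.11 to 3.9 CPM with LPS against 0.253 to 0.724 CPM in controls. Il16, a chemoattractant for CD4+ cells, fell by 1.16 ± 0.33, though control replicate 4 (3.88 CPM) lay below all LPS values (4.6 to 7.39 CPM), and the call ended without LPS replicate 3 or 4. The 10 members that did not pass included Tgfb1 (-0.12 ± 0.24), Il18 (0.08 ± 0.35) and Il15 (0.11 ± 0.39).

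Chemokines for neutrophils and monocytes rose, while several interferon-linked chemokines had a wide spread between controls and did not pass. Of 24 tested, 9 rose and 1 fell, with a median of 0.87. Cxcl2, a neutrophil chemoattractant, had 1434, 1533, 1448 and 1408 CPM with LPS against 12.1, 31.4 and 49.6 CPM as the lowest, median and highest control (5.63 ± 0.37, adjusted p = 1.22e-11). Its relative Cxcl1 had 263, 265, 154 and 159 CPM with LPS against at most 2.49 CPM in controls (7.31 ± 0.60), with replicates 1 and 2 the higher. Ccl3 and Ccl4, the macrophage inflammatory protein 1 genes, had 1176, 1306, 794 and 642 CPM and 1313, 1482, 946 and 767 CPM with LPS, against 57.5 to 351 CPM and 40.2 to 392 CPM in controls (2.25 ± 0.32 and 2.37 ± 0.40). Ccl2, the monocyte chemoattractant, rose by 3.16 ± 0.56 and Cxcl10, an interferon-inducible ligand of CXCR3, by 3.14 ± 0.62. Cxcl10 had 166, 186, 205 and 146 CPM with LPS against 3.18, 17.6 and 42.1 CPM. Cxcl3, Ccl9 and Ccl22 rose by 4.03 ± 0.47, 0.99 ± 0.16 and 4.02 ± 0.63, and the groups did not overlap for any of the 9 that rose. Ccl5 had 24.1, 27.1, 22.7 and 10.9 CPM with LPS, against 1.19, 4.32 and 187 CPM, and did not pass (-0.79 ± 1.05). Ccl7 had 33.6, 38.5, 36.4 and 30.4 CPM against 1.39, 3.19 and 42.6 CPM (1.73 ± 0.79, adjusted p = 0.166). Without control replicate 6, Ccl7 passed (3.11, adjusted p = 0.00455) and Ccl5 stood at 1.69 without passing (adjusted p = 0.228). Cxcl13, a B cell chemoattractant, fell by 3.34 ± 1.12 near the floor of detection, with 0.238 CPM at most with LPS and 1.96 CPM at most in controls, and its call ended without any of 7 libraries.

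The interferon beta transcript rose, and interferon-stimulated genes did not pass. Ifnb1, the interferon beta gene (chromosome 4, 88522025 to 88522774), had 7.45, 13.7, 10 and 5.79 CPM with LPS and was at 0 in 3 of 6 controls, with at most 0.0724 CPM in the others. Its fitted rise of 7.94 ± 0.58 (adjusted p = 5.9e-11) therefore rests on few control counts. Irf1, a transcription factor of interferon and inflammatory genes, had 573, 601, 438 and 414 CPM with LPS against 45.3, 63.9 and 91.7 CPM (2.95 ± 0.24), and Irf4 rose by 2.02 ± 0.32. The interferon receptor gene Ifnar1 (0.38 ± 0.10) and Irf5 (0.32 ± 0.09) also passed, but Ifnar1 not without LPS replicate 2 and Irf5 not without LPS replicate 1 or 2 or control replicate 1. Irf7 had 58.9, 89.5, 101 and 48.8 CPM with LPS against 10.8, 44.2 and 600 CPM and did not pass (-0.91 ± 0.87). Of 31 tested interferon-stimulated genes 0 rose and 0 fell in edgeR, DESeq2 and limma-voom. In edgeR 1 had an unadjusted p under 0.05. Their median was -0.28 in edgeR and DESeq2 but 0.35 in limma-voom, so the list has no settled direction. Their mean log2 CPM was 5.14, 5.42, 5.83 and 4.97 in LPS replicates 1 to 4, inside the control values of 4.67, 3.62, 4.82, 2.94, 5.93 and 7.59 of replicates 1 to 6. The median was -1.68 in LPS replicates 1 and 2 against controls 5 and 6, and 1.16 in LPS replicates 3 and 4 against controls 1 to 4. Without control replicate 6 it turned to 0.52 and 2 members rose, Ifi205 (adjusted p = 0.0329) and Ifih1, both named after their values were seen. Whatever sets control replicate 6 apart was not tested.

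Immediate early transcription factors, which are induced without new protein synthesis, rose broadly. Of 22 tested 17 rose and 0 fell, with a median of 2.16, and every tested member had a positive fold change. In LPS replicates 1 and 2 against controls 5 and 6, 11 rose, and in LPS replicates 3 and 4 against controls 1 to 4, 15 rose. Maff, a small Maf factor (chromosome 15, 79346621 to 79359076), had 139, 146, 168 and 174 CPM with LPS against 3, 5.53 and 7.95 CPM as the lowest, median and highest control, a 28.9-fold rise (4.85 ± 0.29, adjusted p = 2.02e-12). Junb, an AP-1 subunit, had 952, 998, 1276 and 1296 CPM against 94.8, 166 and 314 CPM (2.65 ± 0.34). Egr1, a zinc finger factor of the growth response, had 62.5, 64.8, 165 and 111 CPM against 2.58 to 11.8 CPM (4.08 ± 0.45), and Egr2 had 110, 124, 65.4 and 57.2 CPM against 1.89 to 10.5 CPM (3.78 ± 0.37). The pair ran in opposite order over the LPS libraries, Egr1 being higher in replicates 3 and 4 and Egr2 in replicates 1 and 2. The orphan nuclear receptor gene Nr4a1 rose by 3.54 ± 0.62, with 86.7, 98.1, 181 and 167 CPM against 2.34, 7.24 and 25.5 CPM. Fos, the partner of Jun in AP-1, had 137, 140, 297 and 249 CPM with LPS against 101, 132 and 225 CPM, overlapped between the groups and did not pass (0.54 ± 0.30, adjusted p = 0.277). The calls within AP-1 thus included Jun (1.71 ± 0.19), Junb, Jund (1.32 ± 0.19), Fosb (2.72 ± 0.76) and Fosl1 (2.69 ± 0.34), but not Fos or Fosl2 (0.88 ± 0.49).

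Genes that limit signalling rose, among them phosphatases of MAP kinases, regulators of cytokine mRNA and inhibitors of JAK-STAT signalling. Of 10 dual-specificity phosphatases 6 rose and 0 fell, with a median of 1.83. Dusp1, which inactivates p38 and JNK, had 471, 584, 579 and 575 CPM with LPS against 35.8, 48.9 and 69.9 CPM (3.48 ± 0.28), Dusp2 rose by 4.10 ± 0.40, and Dusp5, an ERK phosphatase, by 3.52 ± 0.42. Dusp6, also an ERK phosphatase, did not pass (-0.48 ± 0.29). The 110 bases before the RefSeq start of Dusp5 (chr19:53529035-53529144, plus strand, GRCm38.p6) hold an adjacent pair of serum response elements, in capitals. That motif was found in 1.47% of all promoters.
Dusp5: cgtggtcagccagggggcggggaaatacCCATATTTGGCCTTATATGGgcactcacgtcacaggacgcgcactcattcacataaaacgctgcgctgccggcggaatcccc

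Among regulators of cytokine mRNA decay 6 of 12 rose and 1 fell. Zc3h12c, a regnase-family RNase gene, had 605, 559, 610 and 471 CPM with LPS against 89.9, 110 and 135 CPM (2.34 ± 0.14, adjusted p = 2.04e-12). Zfp36, the gene of tristetraprolin, which binds AU-rich elements, had 489, 562, 531 and 384 CPM against 76.4, 99.9 and 107 CPM (2.35 ± 0.19). Its relative Zfp36l2 fell by 0.74 ± 0.22, a call that ended without LPS replicate 1 or 2. In JAK-STAT signalling 5 of 23 tested members rose and 1 fell, with a median of 0.07. Socs3, which blocks signalling by interleukin 6 family receptors, had 469, 506, 481 and 450 CPM against 3.84, 8.3 and 11.2 CPM, a 56.9-fold rise (5.83 ± 0.40, adjusted p = 2.4e-11). Pim1, a kinase gene downstream of STATs, rose by 2.90 ± 0.30. Socs3 and Pim1 kept their calls without any single library, and the calls of Socs1, Jak2, Cish and Socs6 did not. Socs1 stood at -0.47 in LPS replicates 1 and 2 against controls 5 and 6. Stat3, the gene of a transcription factor of this pathway, did not pass (0.26 ± 0.12).

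Enzymes that make prostaglandin E, itaconate and tetrahydrobiopterin rose, and those of leukotriene synthesis did not pass. Of 16 tested 6 rose and 0 fell, with a median of 0.33. Acod1, which makes itaconate, had 911, 1009, 714 and 487 CPM with LPS against 24.1, 52.1 and 114 CPM (3.73 ± 0.35, adjusted p = 8.52e-09). Ptgs2, the inducible cyclooxygenase (chromosome 1, 150100031 to 150108227), had 356, 350, 225 and 194 CPM against 12.8, 17.5 and 50.6 CPM (3.62 ± 0.47), and Ptges, the prostaglandin E synthase acting after it, had 68.5, 70.3, 25.5 and 22.9 CPM against 3.88, 5.43 and 8.65 CPM (2.96 ± 0.35). In LPS replicates 1 and 2 both were higher than in replicates 3 and 4, and every LPS value lay above every control. Gch1, the first enzyme of tetrahydrobiopterin synthesis, rose by 1.62 ± 0.19 and the mitochondrial arginase gene Arg2 by 3.09 ± 0.64. Nos2, the inducible nitric oxide synthase, had too few counts to be tested, with 0 to 0.217 CPM with LPS and 0 to 1.14 CPM in controls. The leukotriene genes Alox5 (0.53 ± 0.34) and Alox5ap (0.39 ± 0.31) did not pass.

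Antioxidant genes rose in part, and here the LPS libraries differed among themselves. Of 34 tested members of the Nrf2, glutathione and thioredoxin list, 15 rose and 1 fell, with a median of 0.49. The count was 8 without LPS replicate 1, 8 without LPS replicate 2, 5 without both (Sqstm1, Slc7a11, Srxn1, Txnrd1 and Sod2) and 23 without replicates 3 and 4. It was 9 with library size as the only scaling and 8 with the mean of other-cell markers as a covariate. In a first set every LPS library lay above every control. Srxn1, which repairs peroxiredoxins (chromosome 2, 152105516 to 152111376), had 25.6, 36.1, 26 and 21.9 CPM with LPS against 4.24, 7.14 and 11 CPM (1.86 ± 0.27). Slc7a11, which imports cystine for glutathione, had 539, 485, 444 and 339 CPM against 57, 115 and 202 CPM (1.90 ± 0.25). Txnrd1, the cytosolic thioredoxin reductase gene, had 821, 823, 697 and 674 CPM against 301, 321 and 450 CPM (1.14 ± 0.14). The gene of the regulator Nrf2 itself, Nfe2l2, had 448, 460, 366 and 345 CPM against 176, 203 and 339 CPM (0.83 ± 0.21, adjusted p = 0.006). Slc7a11, Txnrd1 and Nfe2l2 were also higher in LPS replicates 1 and 2 than in replicates 3 and 4, and Nfe2l2 did not pass without both. A second set was higher in LPS replicates 1 and 2 too, but overlapped the controls in replicates 3 and 4. Prdx1, a peroxiredoxin gene, had 5785, 5420, 2844 and 3160 CPM with LPS against 2015, 2653 and 2931 CPM (0.76 ± 0.22), and the glutamate-cysteine ligase subunit gene Gclm had 467, 395, 261 and 261 CPM against a highest control of 277 CPM. Both calls ended without LPS replicate 1 or 2, as did that of Hmox1, whose fold change was -0.06 without both. Nqo1, a quinone reductase gene and classical Nrf2 target, had a difference of -0.19 ± 0.33 and did not pass. Among the LPS libraries astrocyte markers were lowest in the same replicates 1 and 2. Within the marker sets, 11 members rose in LPS replicates 1 and 2 against controls 5 and 6, and 6 in LPS replicates 3 and 4 against controls 1 to 4. Prdx1 stood at 1.00 in the first set (adjusted p = 0.047) and at 0.32 in the second (adjusted p = 0.674).

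Srxn1 carries 2 matches to the AP-1 consensus TGANTCA within 110 bases before its RefSeq start (chr2:152105414-152105523, plus strand, GRCm38.p6), shown in capitals. That motif stood in 6.75% of all promoters.
Srxn1: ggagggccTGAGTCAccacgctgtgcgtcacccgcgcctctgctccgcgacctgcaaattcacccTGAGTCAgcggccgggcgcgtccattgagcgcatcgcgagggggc

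**Figure D3:**
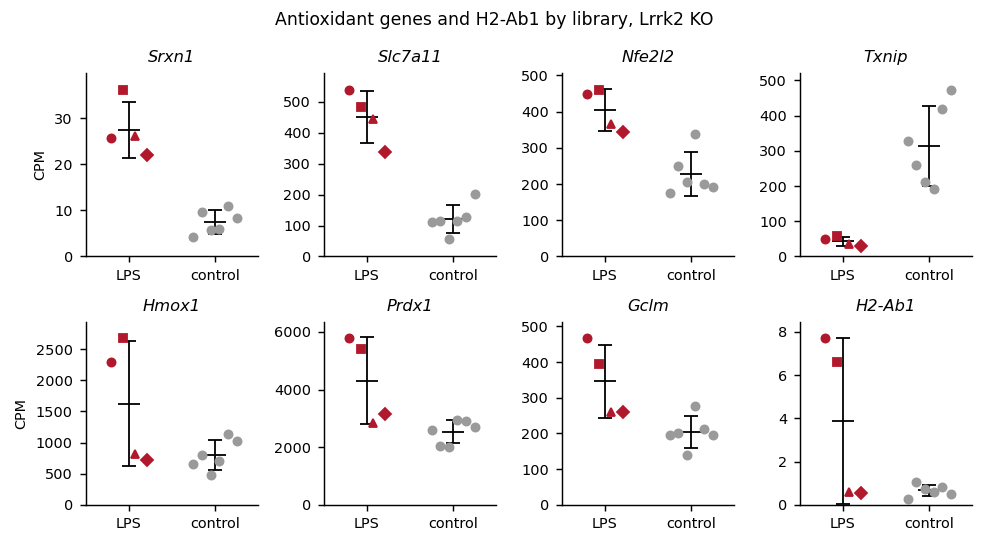
CPM by library of 7 antioxidant genes and H2-Ab1, KO LPS left of KO control, with the mean and SD as bars. LPS replicates 1 to 4 are drawn as a circle, square, triangle and diamond. For Srxn1, Slc7a11 and Nfe2l2 all 4 lie above the controls and for Txnip all lie below, while for Hmox1, Prdx1, Gclm and H2-Ab1 replicates 3 and 4 lie within or near the control range and replicates 1 and 2 above it.

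Chaperones of the endoplasmic reticulum also differed between these libraries. Of 29 stress response genes 10 rose and 0 fell, with a median of 0.29, but without LPS replicate 1 or 2 only Hspa5, the chaperone BiP, and Ppp1r15a rose. The count was 6 without control replicate 3 and 3 without control replicate 6, where Canx rose as well. Ppp1r15a, which encodes the phosphatase subunit that restores translation after stress, had 90.6, 106, 185 and 143 CPM with LPS against 15.3 to 43.9 CPM in controls (2.29 ± 0.27), so it was higher in replicates 3 and 4. Calr, the calreticulin gene, had 1083, 1128, 621 and 587 CPM against 360 to 659 CPM, with overlap in those 2 replicates (0.62 ± 0.19). In LPS replicates 1 and 2 against controls 5 and 6, 11 of the stress genes rose and 2, Ddit3 and Sesn2, fell, and in the other marker set Hspa5 and Ppp1r15a rose. Of 21 antigen presentation genes 4 rose, Cd40, H2-Ab1, Icosl and Cd74, and without LPS replicates 1 and 2 Cd40 alone. The class II genes had the pattern of Calr. H2-Ab1 had 7.71, 6.62, 0.595 and 0.558 CPM with LPS against 0.253 to 1.05 CPM in controls, and Cd74 had 22.2, 26.7, 6.15 and 6.26 CPM against 1.99 to 9.56 CPM. Within the marker sets H2-Ab1 stood at 3.40 in LPS replicates 1 and 2 against controls 5 and 6 and at -0.22 in the other set. Some markers of border macrophages, the macrophages of the brain's linings, were high in the same LPS replicates 1 and 2, and others were not. F13a1 had 25.2, 24.6, 3.17 and 2.7 CPM with LPS against 0.795 to 7.07 CPM in controls (2.12 ± 0.63, adjusted p = 0.0215), a call that ended without LPS replicate 1 or 2. Clec10a had 8.56, 7.43, 2.34 and 2.57 CPM against 0.298 to 2.69 CPM, and Pf4 had 124, 132, 57.3 and 63.1 CPM against 49.7 to 92.6 CPM, and neither passed. Ms4a7 and Cbr2 ran the other way, being lower in LPS replicates 1 and 2 than in replicates 3 and 4. Mrc1 showed no such split, so the markers do not show more border macrophages in replicates 1 and 2. Of the 6 tested members of the border macrophage list 1 rose and 1, Ms4a7, fell. The list summed to 1187 to 1278 CPM with LPS and 1043 to 1485 CPM in controls. The part of these cells in the class II values was not tested. The costimulatory receptor gene Cd40 had 29.6, 30.1, 31.5 and 26.3 CPM against 2.29, 10.4 and 13 CPM (1.77 ± 0.41). Of 24 glycolysis and hypoxia genes 4 rose, Slc2a1, Pfkp, Slc16a3 and Hif1a, beside 6.36% of all genes. The count was 12 without LPS replicates 3 and 4, and Slc2a1 alone rose without replicates 1 and 2. It was 8 in LPS replicates 1 and 2 against controls 5 and 6, and 1, Slc2a1, in LPS replicates 3 and 4 against controls 1 to 4. The glucose transporter gene Slc2a1 rose by 1.26 ± 0.21, with 156, 164, 105 and 98.9 CPM against 39.5 to 61.6 CPM in controls. Of 77 nuclear genes of oxidative phosphorylation 1 rose, Uqcrfs1 of complex III (0.37).

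Sensors, uptake receptors and survival genes changed selectively. Nlrp3, the inflammasome sensor (chromosome 11, 59541568 to 59566956), had 861, 952, 1100 and 813 CPM with LPS against 37, 55.4 and 79.4 CPM, a 16.5-fold rise (4.04 ± 0.30, adjusted p = 6.27e-11). The other parts of that machinery, Casp1 (0.07 ± 0.15) and Gsdmd (0.08 ± 0.15), did not pass. In the list 5 of the 16 members rose, the others being Mefv, Ninj1, Casp4 and Panx1. The call of Panx1 (0.75) ended without any of 6 libraries, LPS replicates 1 and 2 among them. Olr1, a receptor for oxidised lipoprotein, had 31, 29.5, 21.8 and 16.1 CPM against 0.0994, 0.312 and 0.68 CPM (6.04 ± 0.42), and Clec4e, the mycobacterial glycolipid receptor Mincle, rose by 3.48 ± 0.29. Both lay far above their controls. Of 23 phagocytic receptors 4 rose, the others being Clec4d and Cd36, beside 6.36% of all genes. The call of Cd36 (0.79) ended without any of 6 libraries, LPS replicates 1 and 2 among them. Among survival genes 9 of 20 rose and 1 fell. Gadd45b, a stress-inducible signalling protein gene, had 134, 151, 127 and 145 CPM against 8.98, 18.8 and 26.3 CPM (2.96 ± 0.30), and Cflar and Mcl1, which restrain apoptosis, rose by 1.94 ± 0.18 and 1.27 ± 0.14. The pro-apoptotic genes moved both ways, Bcl2l11 rising by 1.16 ± 0.16 while Bmf fell by 1.94 ± 0.36, with 4.8, 5.53, 8.69 and 11.4 CPM with LPS against 21.5, 29.8 and 37.7 CPM. Bcl2a1a, Bcl2a1b and Bcl2a1d are near-identical copies whose counts may be shared, so their rises are uncertain.

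Cell surface and matrix genes rose for 10 of 29 tested, with a median of 0.65, and for 3, Icam1, Itga5 and Plaur, without LPS replicates 1 and 2. Within the marker sets 9 rose and Itgal fell in LPS replicates 1 and 2 against controls 5 and 6, and the same 3 genes rose in LPS replicates 3 and 4 against controls 1 to 4. The urokinase receptor gene Plaur had 233, 231, 176 and 173 CPM with LPS against 15.7, 28.6 and 41.5 CPM (2.75 ± 0.27). Icam1, the ligand of leukocyte integrins, had 339, 375, 329 and 290 CPM against 72.1, 87.3 and 154 CPM (1.76 ± 0.21). Mmp13, a collagenase gene, had 109 and 126 CPM in replicates 1 and 2 but 34.8 and 35.2 CPM in replicates 3 and 4, with controls at 3.79 to 22.1 CPM (2.45 ± 0.54). None of the 3 overlapped between the groups. The adenosine receptor gene Adora2b rose by 2.79 ± 0.27, with 32.5, 30.4, 28.1 and 24.1 CPM against 2.51, 4.01 and 7.46 CPM. Ch25h, whose product 25-hydroxycholesterol acts on sterol sensing, rose by 2.02 ± 0.33.

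Among purinergic genes 3 of 11 tested rose, Adora2b included. The nucleotide receptor gene P2ry2 had 30.7, 31.4, 34.5 and 28.4 CPM with LPS against 9.04, 12.6 and 18.7 CPM (1.25 ± 0.21), and the call of Adora2a (1.85 ± 0.60) ended without several single libraries. In lipid efflux 3 of 12 rose, and the share of all genes that rose was 6.36%. Abca1, the cholesterol exporter gene, had 2406, 2206, 2107 and 1655 CPM against 806, 1219 and 1763 CPM, with overlap in replicate 4 (0.77 ± 0.21), and its call ended without LPS replicate 1. Lists of cholesterol synthesis (21 tested), lysosome (29), complement (14) and iron handling (13) had 0 calls in edgeR, DESeq2 and limma-voom. At an unadjusted p under 0.05 in edgeR they had 0, 3, 1 and 2 genes, in that order. Mean log2 CPM of cholesterol synthesis genes was 3.85, 3.75, 5.04 and 5.02 in LPS replicates 1 to 4, against 5.01, 4.88, 5.02, 5.22, 3.62 and 3.90 in control replicates 1 to 6, the same split across both groups as for astrocyte markers. Of 30 cell cycle genes 2 passed, Pcna (0.59 ± 0.15) and Mki67 (1.02 ± 0.32), a share near the 6.36% of all genes that rose, and the call of Mki67 ended without any of 6 libraries. In edgeR 0 passed without LPS replicates 1 and 2.

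Few genes that define resting microglia passed the test. Of 28 tested homeostatic genes 1 rose, where 6.36% of all genes rose and 7.35% fell. It was the GTPase gene Rhob (1.32 ± 0.27), with 214, 229, 202 and 200 CPM with LPS against 54.1, 85 and 119 CPM. In edgeR, DESeq2 and limma-voom 0 fell (2 had an unadjusted p under 0.05 in edgeR), and 2, Tmem119 and Maf, fell without LPS replicates 3 and 4. Tmem119 had 2.85, 4.18, 7.22 and 8.32 CPM against 4.08, 8.61 and 12 CPM (-0.65 ± 0.34), and the fractalkine receptor gene Cx3cr1 had 106, 117, 156 and 179 CPM against 126, 219 and 266 CPM (-0.55 ± 0.30). The groups overlapped for both, and neither passed. For the purinergic receptor gene P2ry12 the fold was 0.845 and for the growth factor receptor gene Csf1r it was 1.08, and neither passed.

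LRRK2 phosphorylates small Rab GTPases, so its partners were listed separately. Of 19 tested, 3 rose and 1 fell, with a median of 0.09, where 6.36% of all genes rose and 7.35% fell. So few calls give no result about the partners as a set. Rab12, a substrate of the missing kinase (chromosome 17, 66494512 to 66519729), had 87.4, 85.9, 82.4 and 85.5 CPM with LPS against 56.9, 60.5 and 66.8 CPM, without overlap (0.47 ± 0.07, adjusted p = 1.81e-05). Spag9, the gene of the motor adaptor JIP4, which binds phosphorylated Rabs, rose by 0.56 ± 0.14. Rab5a of early endosomes rose by 0.21 ± 0.06, a call that ended without any of 4 libraries. Rab3a, a vesicle Rab, fell by 1.45 ± 0.33, with 0.843, 0.38, 0.595 and 1.12 CPM against 0.93, 2.17 and 3.16 CPM and with overlap. In WT microglia, which have LRRK2, the values were 0.57 for Rab12, 0.76 for Spag9 and -1.38 for Rab3a. Without LPS replicates 1 and 2 together Rab12 alone rose. Rab10 (0.15 ± 0.08), Rab8a (0.11 ± 0.08) and the homologue Lrrk1 (-0.27 ± 0.15) did not pass.

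Zinc finger genes named Zfp and a number fell with LPS. Most encode DNA-binding proteins with tandem C2H2 fingers, many of them repressors that carry a KRAB domain and recruit heterochromatin to transposons. Of 316 tested members 188 fell and 12 rose, 267 had a fold change below 0, and the median was -0.68, beside -0.04 over all genes. The 188 were 59.5% of the members, whereas 6.18% of the 14030 other genes fell, and they made up 17.8% of all genes that fell. All 4 LPS libraries lay below all 6 controls for 160 members and above them for 11, beside 5.33% and 4.84% of all genes. Zfp12 (chromosome 5, 143235163 to 143248834) had 5.25, 6.51, 5.83 and 7.12 CPM with LPS against 18, 20.6 and 30.2 CPM as the lowest, median and highest control (-1.81 ± 0.14, adjusted p = 3.18e-10). Zfp759 had 1.75, 1.46, 1.63 and 2.14 CPM against 6.67, 7.6 and 9.84 CPM (-2.19 ± 0.19). Zfp157 had 3.82, 2.66, 4.6 and 5.83 CPM against 16.7, 19.3 and 22.4 CPM (-2.17 ± 0.20). In each the LPS libraries were close together and the groups far apart. Zfp273 had 0.519, 0.542, 0.357 and 0.515 CPM against 2.98, 4.05 and 5.17 CPM (-3.07 ± 0.30), and Zfp65 had 11, 10.5, 9.08 and 10.3 CPM against 20.2, 24.7 and 30.3 CPM (-1.28 ± 0.10). More than 2-fold decreases were found for 101 members.

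The decreases were found in every level range and on most chromosomes, but not evenly. In 4 level ranges of equal numbers of members, from low to high, 55.7%, 72.2%, 70.9% and 39.2% of Zfp genes fell, against 3.75%, 12.3%, 12.4% and 4.95% of other genes in the same level ranges. The medians of Zfp genes in these ranges were -1.08, -1.01, -0.63 and -0.14, against -0.23, -0.16, -0.10 and 0.02 for other genes. The highest range thus had the smallest decrease. Members that fell lay on 18 of the 20 chromosomes with a tested member, with 55 of 81 on chromosome 7, 28 of 40 on chromosome 17 and 19 of 27 on chromosome 13. Counts were lower on others, with 6 of 18 on chromosome 4, 2 of 10 on chromosome 18, 0 of 4 on chromosome 3 and 0 of 3 on chromosome 14. Related genes outside the list fell too, among them Zbtb14 (-1.11 ± 0.08), Zscan20 (-1.45 ± 0.14), Zkscan8 (-1.19 ± 0.12) and Zkscan14 (-1.98 ± 0.27). The 12 that rose were not all of this kind, since Zfp36 encodes a CCCH-type RNA-binding protein. Zfp263, a C2H2 factor, rose, with 339, 347, 367 and 358 CPM with LPS against 101, 134 and 168 CPM (1.42 ± 0.11). Leaving out any 1 library gave 169 to 189 Zfp genes that fell, and leaving out LPS replicates 1 and 2 gave 136. Within the marker sets 151 fell in LPS replicates 1 and 2 against controls 5 and 6, and 123 in LPS replicates 3 and 4 against controls 1 to 4. In WT microglia 189 fell, 172 of them shared with KO, with a median of -0.66. Many of these genes are close copies, so reads may be shared among them.

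**Figure D4:**
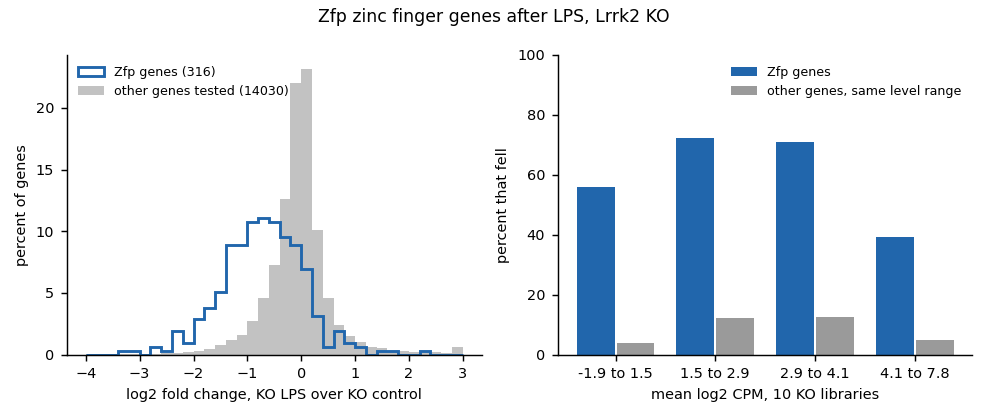
Left, histogram of log2 fold changes (KO LPS over KO control) of 316 Zfp genes and of all other tested genes, values beyond -4 and 3 drawn at those limits. Right, percent of genes that fell in 4 ranges of mean log2 CPM, Zfp genes beside other genes of the same range. The share that fell is 39.2% to 72.2% of Zfp genes against 3.75% to 12.4% of other genes.

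Outside the lists, the smallest p of the comparison belonged to Errfi1, the gene of an EGF receptor inhibitor (chromosome 4, 150853919 to 150868892), with 376, 400, 476 and 408 CPM with LPS against 15.9, 20.1 and 23.9 CPM (4.36 ± 0.15, adjusted p = 1.06e-17). Mir155hg, the host transcript of microRNA miR-155, had 45.8, 46.3, 43.5 and 41.1 CPM against 0.298, 0.862 and 1.6 CPM (5.52 ± 0.55). Kdm6b, a histone demethylase gene, had 40.1, 32.1, 57.5 and 37.1 CPM against 0.685, 2.43 and 2.88 CPM (4.30 ± 0.42). These 3 rose 20.5-fold, 45.8-fold and 19.7-fold with no overlap. Prdm1, the gene of the repressor Blimp-1, rose by 2.68 ± 0.16, the heparan sulfate proteoglycan gene Sdc4 by 2.48 ± 0.18 and the vesicle fusion gene Stx11 by 2.73 ± 0.20. Among genes that fell, Inka1, an inhibitor of the kinase PAK4, had 2.07, 2.6, 2.5 and 2.23 CPM against 5.67, 10.4 and 13.7 CPM (-2.13 ± 0.22). Cybc1, a chaperone of the NADPH oxidase subunits, had 42.5, 45.3, 40.5 and 41.6 CPM against 62.6, 65 and 78.5 CPM (-0.66 ± 0.07).

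Most of the response was also seen in WT microglia, and no gene passed the test of a difference between the genotypes. In WT microglia 2171 genes (15.1%) passed, and 1374 passed in the same direction in both, which is 69.9% of the KO calls and 63.3% of the WT calls, with 0 in opposite directions by edgeR. The test of the difference, KO minus WT, called 0 genes in edgeR, DESeq2 and limma-voom, and 600 had an unadjusted p under 0.05 in edgeR (lowest adjusted p 0.992). The 325 genes that fell in KO and 268 that rose in KO without passing in WT are therefore not shown to be specific to KO. The 6 genes with the smallest p were Lpcat3, Zfp61, Ms4a7, Evi2b, Gm17045 and Cybc1. For Lpcat3, an enzyme that remodels membrane phospholipids, the value was 0.33 in KO and -0.12 in WT, a difference of 0.45 ± 0.10 at an unadjusted p of 0.000126. In KO it had 46, 48.8, 51 and 41.5 CPM with LPS against 36.1, 37.2 and 39.7 CPM. Zfp61 fell by 1.28 in KO and stood at -2.29 in WT, a difference of 1.01 ± 0.24. Cybc1 stood at -0.66 in KO and -0.28 in WT, a difference of -0.38 ± 0.10. None of the 6 passed adjustment. For the main signals the differences and their errors were -0.09 ± 0.26 for Tnfaip3, -0.29 ± 0.50 for Socs3, 0.24 ± 0.46 for Cxcl2 and 0.08 ± 0.19 for Zfp12.

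**Figure D5:**
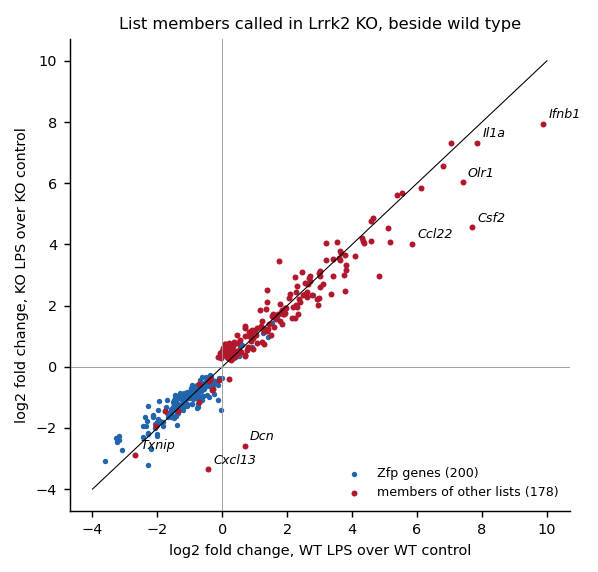
Log2 fold change with LPS in KO (vertical) against WT microglia (horizontal) for the 378 list members called in KO, 200 Zfp genes and 178 others. Of these, 371 have the same sign in both genotypes. The genes were chosen for their KO values, so the plot describes them and tests nothing.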

How the data were processed

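RNA was sequenced from mouse primary microglia. The deposited table holds raw counts per Ensembl transcript as whole numbers, not normalized by the authors. Per the labels' protocols, libraries were stranded, made after removal of ribosomal RNA and read as single ends. Per the submitters' processing notes, CASAVA 1.7.1 and STAR 2.4.2a and mm10 were used. The sources used here name no counting program and no use of strand, so antisense and overlapping genes are uncertain.

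Transcripts were summed to genes with GENCODE M21. Of 94647 transcripts 91320 matched, and the other 3327, with 0.779% to 0.891% of counts, were left out. Genes passing edgeR's filter over 6 groups (14346) were scaled with TMM factors (0.921 to 1.14 in KO) and fitted in edgeR 4.0.16 under R 4.3.3 with a mean for each of 6 groups over all 30 libraries, which share 1 estimate of spread (24 residual degrees of freedom; the common biological coefficient of variation was 0.294). Genes with a Benjamini-Hochberg adjusted p under 0.05 over all genes tested were called. CPM is a count divided by the TMM-adjusted library size. Total counts of 8936310 to 25792873 per KO library limit what can be seen of genes with few counts.

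The gene lists and the genes described were chosen with earlier results of these data known. Genes are named by a rule. It takes (a) the 12 largest rises and 12 largest falls among called genes whose log2 CPM averaged 2 or more, leaving out number-only names, (b) per list and direction at most 8 called members with the lowest p, or 2 uncalled ones where a list has no call, (c) all members of the lists of the Toll-like receptor 4 pathway, NF-kB, cytokines, chemokines, antioxidants, mediators and homeostatic genes, with Lrrk2 and defining markers of other cells, (d) genes counted in groups of 5 or fewer, (e) the 6 genes with the smallest p of the difference between genotypes and (f) the 10 unlisted called genes with the smallest p in each direction. Not all of them are printed. Promoters came from RefSeq (GRCm38.p6) and were matched by symbol for 10339 of 14338 tested symbols. Motifs were searched on both strands in the 250 bases before the start, kB and serum response elements by their consensus and AP-1 as TGANTCA.

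Alternatives were scaling by library size only, RLE scaling, a filter of 1 CPM in 4 libraries, no filter, limma-voom (limma 3.58.1), DESeq2 1.42.0, a test against a log2 fold change of 1, protein-coding genes only, only the compared groups, a replicate block and each library left out. Leaving out KO LPS replicates 1 and 2, KO LPS replicates 3 and 4, or KO controls 1, 4 and 6, a covariate of other-cell markers, and a term for or a comparison within the libraries of low or high astrocyte markers, were chosen after seeing the data. The pipeline was tested on simulated data for this comparison.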

Additional observations from a re-analysis of the deposited data

Results flagged for a closer look

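Among 93 genes described, each group of KO libraries was searched for 1 library that lies far from the rest of its group, by its gap to the nearest other library over the range of the group. Of 186 gene and group pairs 17 had such a library. The threshold is set for about 1 in 20 with independent, normally distributed values. CPM values need not be such and the genes share libraries, so the 17 cannot be set against chance.

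With LPS, Il6 had 32.6 CPM in replicate 3, above 15.8 to 17.4 CPM in the others. Dusp1 was lowest in replicate 1, at 471 CPM beside 575 to 584 CPM. Zfp273 was lowest in replicate 3, at 0.357 CPM beside 0.515 to 0.542 CPM, and Zfp61 in replicate 2, at 2.71 CPM beside 3.31 to 3.35 CPM. All of these LPS values remain on the same side of every control.

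Control replicate 6 was the high library for 6 genes. It had 187 CPM of Ccl5 (others 1.19 to 19.6), 42.6 CPM of Ccl7 (1.39 to 10.2), 600 CPM of Irf7 (10.8 to 125), 50.6 CPM of Ptgs2 (12.8 to 24), 99.9 CPM of Clec4e (36 to 49.9) and 78.5 CPM of Cybc1 (62.6 to 68.5). Control replicate 4 was high for Arg2 at 5.37 CPM (0.411 to 2), Txnrd1 at 450 CPM (301 to 347), Zfp12 at 30.2 CPM (18 to 21.1) and Gem at 4.57 CPM (1.14 to 2.41). The remaining controls apart were replicate 1 for Fos at 225 CPM (101 to 147), replicate 2 for Lpcat3 at 39.7 CPM (36.1 to 37.4) and replicate 3 for Lif at 0.724 CPM (0.253 to 0.408). Replicate 6 also had the highest interferon-stimulated mean (7.59 log2 CPM) and the lowest cell cycle mean (3.72), and replicate 4 the lowest total count, and the part of these in the values above was not tested.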

How the results depend on the processing

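The number of genes called was within 1.5 times of 1967 under most settings. It was 1110 with only the compared groups (541 rose, 569 fell) and 214 when tested against a log2 fold change of 1 (157 and 57). Without KO LPS replicates 1 and 2 together it was 1032 (486 and 546). In KO LPS replicates 3 and 4 against KO controls 1 to 4 it was 918 (467 and 451). KO LPS replicates 1 and 2 against KO controls 5 and 6 gave 1689, though fewer libraries were compared there. What sets these counts apart was not tested. Library size as the only scaling gave 517 that rose and 2318 that fell. DESeq2 called 2327, limma-voom 1986 and no filter 1534. Leaving out single libraries gave 1384 (without KO LPS replicate 1) to 2225 genes (without KO control replicate 4), 634 to 1023 that rose and 750 to 1202 that fell. The test of the difference between genotypes called 0 in every alternative run, DESeq2 and limma-voom included.

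Without KO LPS replicates 1 and 2 together, 4 of 382 named genes had a call in either fit and changed sign. They were Hmox1 (-0.06), H2-Ab1 (-0.22), F13a1 (-0.11) and Creld2 (-0.01), and 60 others lost their call. Genes called in neither fit could also change sign and were not counted. F13a1 (-0.17) and H2-Ab1 (-0.22) also changed sign in KO LPS replicates 3 and 4 against KO controls 1 to 4, and Socs1 (-0.47) in KO LPS replicates 1 and 2 against KO controls 5 and 6. The cause was not tested. Of the called named genes, 49 lost their call without some single library. For same-numbered KO LPS and control libraries, deviations from group means had correlations of -0.189, -0.316, 0.277 and 0.0902. These values cannot decide whether equal numbers share a culture or animal, because deviations shared across numbers enter them. A fit with the replicate block called 2097 genes, and not every LPS library correlated best with its own number. Larger correlations ran across numbers, LPS replicates 1 and 2 with control 5 (0.45 and 0.506) and LPS replicate 4 with control 3 (0.517) and control 5 (-0.519).

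Precision is limited by 4 against 6 libraries and by counting depth for genes under about 1 CPM.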
